A study of Mus musculus with 6 samples.

Results

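The genes of MHC class II presentation were followed in mouse pre-B cells driven by the BCR-ABL1 oncogene, which model Ph+ acute lymphoblastic leukaemia (ALL). The set was a list of 10 genes given by name: the peptide-binding chains H2-Aa, H2-Ab1 and H2-Eb1, the invariant chain Cd74, the protease Ctss, the peptide editors H2-DMa, H2-DMb1, H2-Oa and H2-Ob, and the transactivator Ciita. Of these, 9 had a probe that names a single gene, among 19938 genes measured in all. H2-DMb1 shares its probe with H2-DMb2, so no value is given for either. Each measured member had 1 single-gene probe.

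All 6 arrays held RNA of cells on the FvB/N background floxed at Spry1 and Spry2, the genes of 2 Sprouty proteins that restrain receptor tyrosine kinase signalling. The 3 control arrays came from cells transduced with PMIP-ERT2, which carries no recombinase, and the 3 Cre-ERT2 arrays from cells transduced with PMIP-CRE-ERT2. Cells of both groups had been selected with puromycin and treated with 0.5 µM 4-hydroxytamoxifen for 2 days. No label states that the replicates were separate cultures, and the p-values therefore cover only the spread among these arrays, which may be technical. Cre-ERT2 in cells with intact Sprouty alleles was not analysed here, and loss of the Sprouty genes and activity of the recombinase cannot be told apart.

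MHC class II molecules are pairs of an alpha and a beta chain that show peptides from the endosomal pathway to CD4+ T cells. New pairs bind the invariant chain CD74, which fills the peptide groove; proteases, cathepsin S last among them in B cells, cut it down to the CLIP fragment, and H2-DM then exchanges CLIP for other peptides while H2-O restrains H2-DM. In B lineage cells the genes are controlled by CIITA, a coactivator that does not itself bind DNA and is recruited by factors on the X and Y boxes of class II promoters. Surface class II is low on early mouse B cell precursors and rises as the cells mature. FvB/N mice carry the q haplotype of the H2 complex, in which the E alpha chain is not made. How well the array's probes match the alleles of this strain was not analysed here.

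Letters like those of the X and Y boxes were searched in promoter windows from RefSeq (GRCm38.p6, 250 bases before to 50 after a gene's start), which hold the C57BL/6J reference and not the FvB/N alleles. Windows were found for 7 of the 10 members, and none for H2-Ab1, Cd74 or Ciita. The Y box was searched as TGATTGG, spelled after these windows had been read, and a stretch over the X boxes as AACNNATGNTGC. Each was searched separately on either strand, and overlap between their matches was not checked. The X letters are the 1 pattern of 12 bases with 9 fixed letters that occurs upstream of the start in all of H2-Eb1, H2-Eb2, H2-DMb1, H2-DMb2 and H2-Ob, so those 5 windows match it by construction. The stretches below are shown because they hold letters like those of the control element known from class II genes, which is a match of letters and not a measured site. Capitals mark the matches, and each stretch is 75 bases, 5′ to 3′ on the gene's strand.
H2-Eb1: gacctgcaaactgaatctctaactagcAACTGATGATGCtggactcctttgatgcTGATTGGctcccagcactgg
H2-Eb2: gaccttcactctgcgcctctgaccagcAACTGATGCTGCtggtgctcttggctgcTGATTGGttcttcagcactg
H2-DMb1: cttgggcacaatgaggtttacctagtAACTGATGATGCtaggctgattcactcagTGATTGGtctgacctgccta
H2-Ob: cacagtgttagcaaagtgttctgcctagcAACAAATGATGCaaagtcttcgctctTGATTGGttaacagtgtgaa
H2-Aa: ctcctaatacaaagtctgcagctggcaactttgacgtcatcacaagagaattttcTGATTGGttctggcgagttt
H2-Oa: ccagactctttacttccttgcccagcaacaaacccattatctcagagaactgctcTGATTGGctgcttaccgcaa

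These stretches lie on the plus strand at chr17:34305751-34305825 (H2-Eb1), chr17:34325518-34325592 (H2-Eb2), chr17:34153073-34153147 (H2-DMb1), chr17:34238791-34238865 (H2-Ob) and chr17:34092279-34092353 (H2-Oa), and on the minus strand at chr17:34287854-34287928 (H2-Aa). All are upstream of the annotated start. H2-Eb2, a second E beta gene, is no member and is shown because its values are given below. In H2-Eb1, H2-Eb2, H2-DMb1 and H2-Ob the first X base stood 26 to 29 bases before the first Y base. H2-Aa and H2-Oa held the Y letters but no match to the X letters as spelled, and neither was matched in the H2-DMa or Ctss windows. Of 32851 windows of the same length, 0.122% held the X letters, 7.82% the Y letters and 0.0274% (9 windows) both. The 5 windows from which the X letters were taken are among these 9, so the share with both is no independent background.

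Log2 values of the arrays had medians from 7.73 to 7.81. Both floxed genes were lower in the Cre-ERT2 arrays, Spry2 by a log2 difference of -1.06 (limma adjusted p = 0.00162) and Spry1 by -0.84 (limma adjusted p = 0.00462). The B lineage markers Igll1 and Cd79a, picked with their values in view, were bright in both groups (log2 means of 14.2 and 13.6 in control). Of the same list of 15 measured markers, Rag2 was lower in the Cre-ERT2 arrays (-0.68, limma adjusted p = 0.00162). Over all genes, 159 rose and 223 fell (1.92% of 19938 at a limma adjusted p under 0.05), and the median log2 difference was -0.03.

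Of the 9 measured members, only Cd74 passed the threshold in the comparison of Cre-ERT2 with control cells. That is 1 gene higher, where 0.797% of all genes were called higher, and 0 lower, where 1.12% were. At an unadjusted limma p under 0.05, 2 members were higher (Cd74 and H2-DMa), as were 5.24% of all genes, and 0 were lower, as were 12.8% of all genes. Of the 9, 5 had positive differences, against 36.9% of all genes, and the median was 0.04. The invariant chain gene and H2-DMa had the 2 largest differences, and those of the other 7 lay between -0.10 and 0.09.

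**Figure D1:**
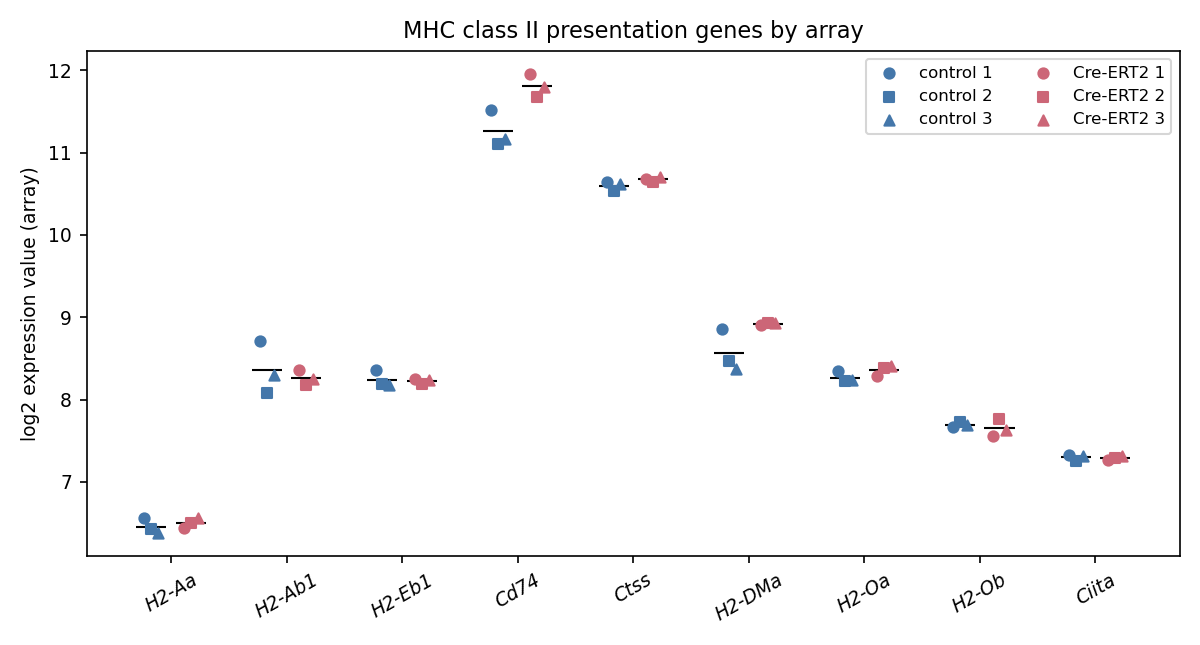
Log2 expression value (vertical axis) of each measured class II member on every array, with control arrays in blue, Cre-ERT2 arrays in red, a marker shape for each array number and a black line at each group mean. The 3 Cre-ERT2 arrays lie above the 3 control arrays for Cd74, H2-DMa and, by 0.0067, Ctss, and the groups overlap for the other members. Heights of different genes come from different probes and are not compared.

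H2-Ab1, which encodes the beta chain of the A molecule, measured 8.71, 8.08 and 8.30 in the controls numbered 1, 2 and 3. The Cre-ERT2 arrays, in the same order of their numbers here and below, measured 8.36, 8.18 and 8.24. All Cre-ERT2 arrays fell within the range of the control arrays, whose spread was wider because control 1 was high. The log2 difference was -0.10 ± 0.14 (SE; 95% interval -0.41 to 0.21, limma adjusted p = 0.761). Without control 1 it was 0.07, so its sign rested on that array.

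H2-Aa, the alpha chain gene of the same molecule, measured 6.56, 6.42 and 6.38 in the controls, and 6.44, 6.498 and 6.56 in Cre-ERT2 arrays. The groups overlapped, and the log2 difference was 0.04 ± 0.07 (SE; 95% interval -0.11 to 0.19, limma adjusted p = 0.790). Its values lay below the lower quartile of gene values on each array (6.75 to 6.84), where a probe follows a change in RNA less closely.

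H2-Eb1, which encodes the E beta chain, measured 8.36, 8.19 and 8.17 in the controls, and 8.25, 8.19 and 8.24 in Cre-ERT2 arrays. The groups overlapped and control 1 was again the highest array. The log2 difference was -0.02 ± 0.06 (SE; 95% interval -0.16 to 0.13, limma adjusted p = 0.928), and it was 0.04 without control 1.

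Cd74, which encodes the invariant chain, measured 11.51, 11.11 and 11.17 in the controls, and 11.96, 11.68 and 11.79 in Cre-ERT2 arrays. Every Cre-ERT2 array exceeded every control array, the closest pair being control 1 and Cre-ERT2 2, which were 0.167 apart. The means were 11.26 ± 0.22 and 11.81 ± 0.14 (SD, n = 3 each), a log2 difference of 0.55 ± 0.11 (SE; 95% interval 0.29 to 0.80) or 1.46-fold. The limma adjusted p was 0.0499. The call was kept without control 1 (adjusted p = 0.0233) and lost without control 2 (adjusted p = 0.134), control 3 (0.160), Cre-ERT2 1 (0.134), Cre-ERT2 2 (0.0635) or Cre-ERT2 3 (0.184), with log2 differences from 0.47 to 0.67. The 95% interval of Cd74 did not overlap that of H2-Aa, H2-Ab1 or H2-Eb1, the member genes of chains its product binds. It did hold the log2 difference of H2-Eb2 (0.38), a beta chain gene that is no member. The probes also differ in brightness, with H2-Aa at percentile 19.6 of mean gene values and Cd74 at 91.1.

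Ctss, the gene of cathepsin S, measured 10.64, 10.54 and 10.62 in the controls, and 10.68, 10.65 and 10.71 in Cre-ERT2 arrays. Its groups did not overlap, but the gap was 0.0067 and the log2 difference 0.08 ± 0.05 (SE; 95% interval -0.04 to 0.20, limma adjusted p = 0.499). Of the 9 members, 3 had all Cre-ERT2 arrays above all control arrays, as had 6.59% of all genes, and 0 had the reverse, as had 18.2%. In either direction, the groups did not overlap for 24.8% of all genes.

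Among the peptide editors, H2-DMa, which encodes the alpha chain of H2-DM, measured 8.85, 8.47 and 8.37 in the controls, and 8.91, 8.93 and 8.93 in Cre-ERT2 arrays. The Cre-ERT2 arrays lay within 0.0217 of one another and above every control array, control 1 by 0.0554. The log2 difference was 0.36 ± 0.11 (SE; 95% interval 0.11 to 0.62, limma adjusted p = 0.129), which did not pass. Without control 1 it was 0.51 and passed (limma adjusted p = 0.0140).

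H2-Oa and H2-Ob encode the 2 chains of H2-O, the inhibitor of H2-DM that B cells make. H2-Oa measured 8.35, 8.22 and 8.23 in the controls, and 8.28, 8.38 and 8.40 in Cre-ERT2 arrays, with a log2 difference of 0.09 ± 0.06 (SE, limma adjusted p = 0.500). H2-Ob measured 7.67, 7.72 and 7.69 in the controls, and 7.56, 7.76 and 7.63 in Cre-ERT2 arrays, with a log2 difference of -0.04 ± 0.06 (SE, limma adjusted p = 0.772). The groups overlapped for both genes. Their 95% intervals ran from -0.05 to 0.23 and from -0.19 to 0.10.

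Ciita, the transactivator gene, measured 7.33, 7.25 and 7.32 in the controls, and 7.26, 7.29 and 7.32 in Cre-ERT2 arrays. The groups overlapped, and the log2 difference was -0.01 ± 0.05 (SE; 95% interval -0.13 to 0.11, limma adjusted p = 0.943). The bound of this interval on the higher side lies below the lower bound for Cd74. The Ciita probe was dimmer, at percentile 36.4 of mean gene values against 91.1 for Cd74, and the filter on dim genes left it out. A dim probe may follow a change in RNA less closely. A single probe represents Ciita, so its alternative promoters could not be followed separately.

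The class II genes other than Cd74, Ctss and Ciita lie together in the H2 complex on chromosome 17, interleaved with class I processing genes. In the order of the reference gene table from H2-Oa to H2-Ea, 13 genes were measured, and 0 of them passed by limma (2 higher, H2-DMa and H2-Eb2, and 0 lower at an unadjusted p under 0.05, against 5.24% and 12.8% of all genes). At the H2-Ea end, H2-Eb2 measured 9.19, 8.96 and 9.01 in the controls, and 9.61, 9.27 and 9.41 in Cre-ERT2 arrays. All Cre-ERT2 arrays were above all control arrays, with a log2 difference of 0.38 ± 0.10 (SE, limma adjusted p = 0.082). Array weights brought H2-Eb2 past the threshold (adjusted p = 0.0128), as did a variance trend with intensity (adjusted p = 0.0417) and a filter on dim genes (adjusted p = 0.0411). H2-Eb2 did not pass whichever array was left out (limma adjusted p from 0.066 to 0.241), nor without variance moderation (adjusted p = 0.273). Its neighbour H2-Eb1 differed by -0.02, and both promoter stretches above hold the X and Y letters, with 28 bases from the first X base to the first Y base. Cross-hybridisation between the probes of these related genes was not analysed here. H2-Ea, the E alpha gene, was at 6.21 in controls and 6.25 in Cre-ERT2 arrays, below the lower quartile of gene values. The class I processing genes of the interval, Psmb9 (-0.06), Tap1 (0.15), Psmb8 (0.14) and Tap2 (0.11), did not pass.

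**Figure D2:**
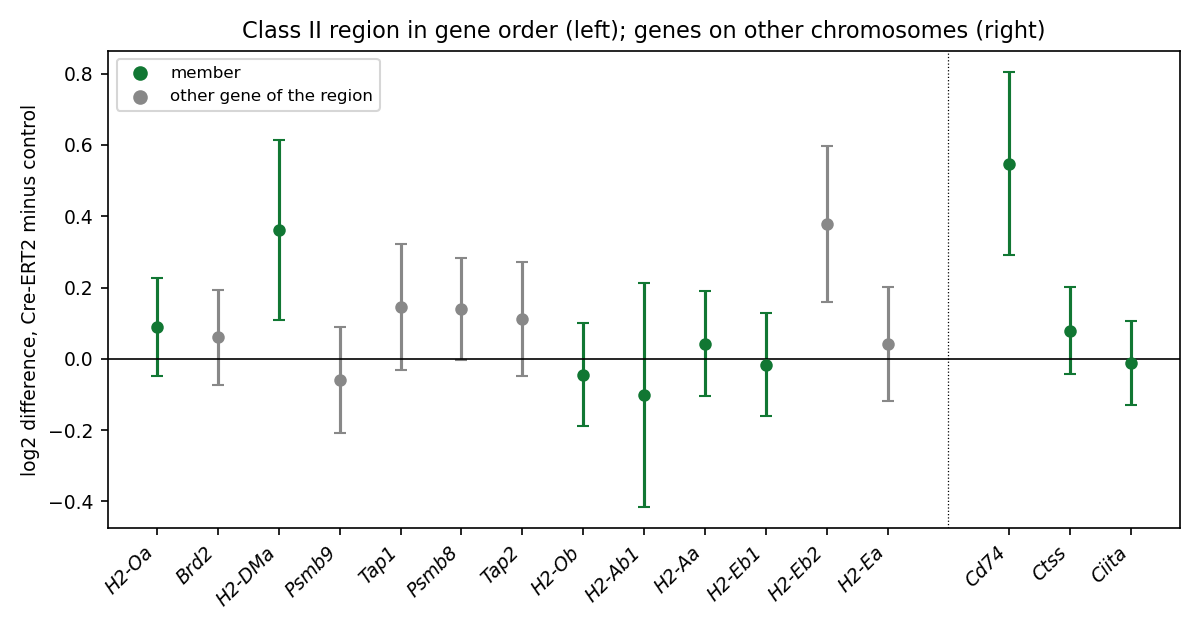
Log2 difference, Cre-ERT2 minus control (vertical axis; points are estimates and bars 95% intervals of the limma fit), for the measured genes of the class II region in their order along chromosome 17, then for Cd74, Ctss and Ciita, which lie on other chromosomes. Members are green and other genes grey. The intervals of H2-DMa, H2-Eb2 and Cd74 lie above 0, and only Cd74 passed after adjustment over all genes.

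Values of the members also moved between arrays of the same group. Control 1 was the highest control array for 8 of the 9 members, all but H2-Ob, against 66.6% of all genes. With the arrays centred on their medians it was highest for 6 of 9, against 39.8% of all genes. Control 1 exceeded the next control array by 0.343 for Cd74, 0.405 for H2-Ab1 and 0.388 for H2-DMa. The mean of Cd74, H2-Aa, H2-Ab1 and H2-Eb1 had its nearest patterns over the 6 arrays in Notch2, Man2b1, Dip2a, Cyhr1, Axin1 and Zfp652, by Pearson r from 0.987 to 0.996 among 9954 other genes with a mean above the median gene. Control 1 also had the highest median of all arrays (7.81, against 7.73 and 7.74 in the other controls). How far r follows such shifts of whole arrays was not tested, and r is a description. None of the 6 genes passed between the groups (log2 differences of 0.04 to 0.10). Notch2, a Notch receptor, measured 8.64, 8.39 and 8.43 in the controls, and 8.64, 8.52 and 8.60 in Cre-ERT2 arrays.

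Markers of mast cells moved with the groups and with Cd74. Of 21 measured markers, Mcpt2, Tpsab1 and Tpsb2 rose (log2 differences of 2.45, 0.83 and 0.67), as did 0.797% of all genes. Of the 21, 0 fell, against 1.12% of all genes, and 19 had positive differences, against 36.9%. At an unadjusted limma p under 0.05, 16 of the 21 were higher and 0 lower, against 5.24% and 12.8% of all genes. All Cre-ERT2 arrays lay above all control arrays for 13 of the 21, Fcer1a among them, and below them for 1. Over all genes these shares were 6.59% and 18.2%. The mean log2 value of the 21 markers ran from 7.37 to 7.74 over the control arrays and from 7.85 to 8.68 over the Cre-ERT2 arrays. The defining genes Cpa3 (12.02 in control, 13.03 in Cre-ERT2 arrays, limma adjusted p = 0.148) and Fcer1a (8.61 and 10.31, limma adjusted p = 0.087) did not pass. The groups overlapped for Cpa3, and both genes were above the lower quartile of gene values in both groups. Of the 21 markers, 6 were below it in control (Mcpt1, Mcpt2, Mcpt4, Mcpt8, Cd200r3 and Mrgprb1) and 3 in Cre-ERT2 arrays (Mcpt1, Mcpt8 and Mrgprb1). The difference of Mcpt2 was thus taken against dim controls (5.94). Ordered by this mean from control 2 through control 3, control 1, Cre-ERT2 2 and Cre-ERT2 3 to Cre-ERT2 1, the arrays had rising Cd74 values of 11.11, 11.17, 11.51, 11.68, 11.79 and 11.96. The order was the same for H2-Eb2, while Cd74 was the only member with it, and 0.697% of all genes had it. H2-DMa did not follow it, being level over the Cre-ERT2 arrays, nor did H2-Ab1. In bulk RNA, more cells of a type and more RNA per cell cannot be told apart.

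With the mast marker mean as a covariate, the log2 difference of Cd74 was 0.22 ± 0.13 (SE, limma adjusted p = 0.593), that of H2-Eb2 was 0.06 ± 0.09 (limma adjusted p = 0.865) and that of H2-DMa was 0.25 ± 0.18 (limma adjusted p = 0.682). H2-Ab1 was at -0.42 ± 0.18 (limma adjusted p = 0.455). The covariate and the groups are themselves ordered alike, all Cre-ERT2 arrays having higher marker means than all control arrays.

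**Figure D3:**
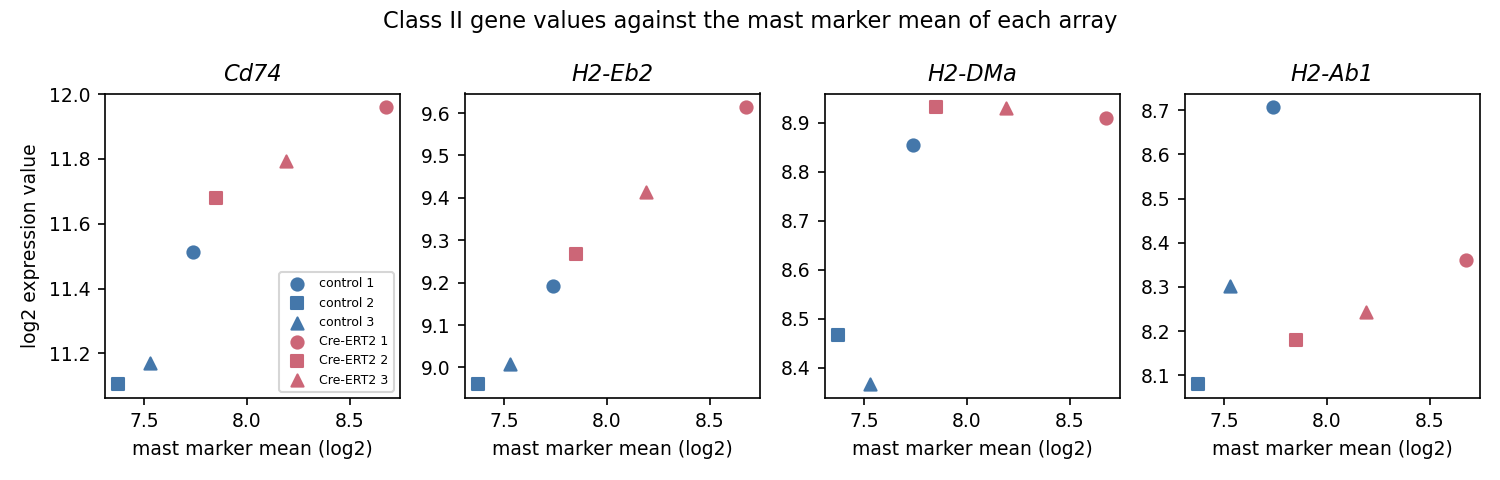
Log2 value of Cd74, H2-Eb2, H2-DMa and H2-Ab1 (vertical axes, each with its own range) against the mean log2 value of 21 mast cell markers on the same array (horizontal axes), with control arrays in blue and Cre-ERT2 arrays in red. Cd74 and H2-Eb2 rise in the order of the marker mean, H2-DMa is level over the 3 Cre-ERT2 arrays, and H2-Ab1 is highest in control 1.

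Markers of other cells that carry class II were also read. Of 13 dendritic cell markers 0 passed by limma, where 0.797% of all genes were called higher and 1.12% lower. At an unadjusted limma p under 0.05, 1 was higher and 1 lower, against 5.24% and 12.8% of all genes. Tcf4 at -0.14 and Bst2 at -0.07 were the brightest. Flt3 had the lowest p of that list (0.35, limma adjusted p = 0.085), and Itgax, which encodes CD11c, lay below the lower quartile (6.06 and 6.03). Of 14 macrophage and monocyte markers 0 passed (2 higher and 1 lower at an unadjusted p under 0.05, against 5.24% and 12.8% of all genes). Of these 14, 12 had positive differences, against 36.9% of all genes. The mean over the markers was 6.997 to 7.10 in controls and 7.03 to 7.28 in Cre-ERT2 arrays, with Lyz2 at 1.07 (limma adjusted p = 0.065) and Cd68 at 0.02. Among 10 markers of mature B cells, which carry more class II than pre-B cells, Ccr7 rose (0.38) and Ms4a1 (-1.09) and Cr2 (-0.42) fell. Over all genes, 0.797% rose and 1.12% fell. Of 15 B cell precursor markers Rag2 fell (-0.68), and of 10 T and NK cell markers Klrb1c fell (-0.33), at values below the lower quartile. At an unadjusted limma p under 0.05, 3 precursor markers were lower (Rag2, Rag1 and Il7r) and 1 higher (Dntt). At that p, 3 mature B cell markers were lower and 2 higher, and 2 T and NK cell markers were lower and 1 higher. Over all genes, 12.8% were lower and 5.24% higher. The part of these markers in the Cd74 result was not tested.

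Other genes that act in class II presentation were taken from 5 lists with 50 measured genes. Of these 2 rose and 0 fell, where 0.797% of all genes rose and 1.12% fell. The median log2 difference of the 50 was 0.02 against -0.03 over all genes. Both that rose belonged to the 13 processing genes. Of those 13, 4 were higher and 0 lower at an unadjusted limma p under 0.05 (5.24% and 12.8% of all genes). Ctsd, the gene of the endosomal protease cathepsin D, measured 10.71, 10.60 and 10.53 in the controls, and 11.06, 11.03 and 11.03 in Cre-ERT2 arrays, a log2 difference of 0.42 ± 0.06 (SE, limma adjusted p = 0.0182). Cd82, a tetraspanin gene whose product is found in class II compartments, measured 11.15, 10.81 and 10.89 in the controls, and 11.65, 11.43 and 11.51 in Cre-ERT2 arrays, a log2 difference of 0.58 ± 0.10 (SE, limma adjusted p = 0.0291). The groups did not overlap for either gene. With the mast marker mean as a covariate the log2 differences were 0.37 for Ctsd and 0.31 for Cd82, and neither passed (adjusted p = 0.232 and 0.377). Both calls were also lost without control 2, control 3, Cre-ERT2 1 or Cre-ERT2 3 (adjusted p from 0.058 to 0.103 for Ctsd and from 0.077 to 0.138 for Cd82).

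In the other lists 0 genes passed by limma. Of 20 transcription genes, 5 were higher and 2 lower at an unadjusted p under 0.05, where 5.24% of all genes were higher and 12.8% lower. The lowest p-values were those of Ep300, a histone acetyltransferase gene (0.28, limma adjusted p = 0.065), and Irf8, an interferon regulatory factor gene (0.29, limma adjusted p = 0.077). Of 10 trafficking genes 0 were at an unadjusted p under 0.05 in either direction, against 5.24% higher and 12.8% lower over all genes. Lamp2 (0.10) and Ap1m1 (-0.08) came first. Of 5 genes for partners of CD74, 2 were lower at an unadjusted p under 0.05, as were 12.8% of all genes: Mif (-0.18, limma adjusted p = 0.191), which encodes the cytokine that binds CD74, and its relative Ddt (-0.21, limma adjusted p = 0.207). Of the 2 other chain genes, H2-Eb2 alone was at an unadjusted p under 0.05.

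The class I pathway, which presents peptides of cytosolic proteins, had 0 of 16 genes past the threshold by limma and 0 at an unadjusted p under 0.05. Over all genes, 0.797% were called higher and 1.12% lower, and 5.24% and 12.8% were so at the unadjusted p. The listed class I heavy chain genes H2-K1, H2-D1 and H2-T23 are not among the 16. H2-D1 and H2-T23 had no value, and H2-K1 was matched by a synonym to H2-K2. The median log2 difference of the 16 was 0.04, with Psmb8 (0.14) and Nlrc5 (0.12), the class I counterpart of CIITA, at the lowest p-values. Interferon-gamma is a known inducer of Ciita and of class II genes. Of 10 genes of its receptor pathway 0 passed, 5 were higher and 0 lower at an unadjusted p under 0.05 (5.24% and 12.8% of all genes), and the median was 0.13. Socs1, the feedback inhibitor gene, was at 0.59 ± 0.13 (SE, limma adjusted p = 0.060) and Iigp1 at 0.32 (limma adjusted p = 0.093).

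**Figure D4:**
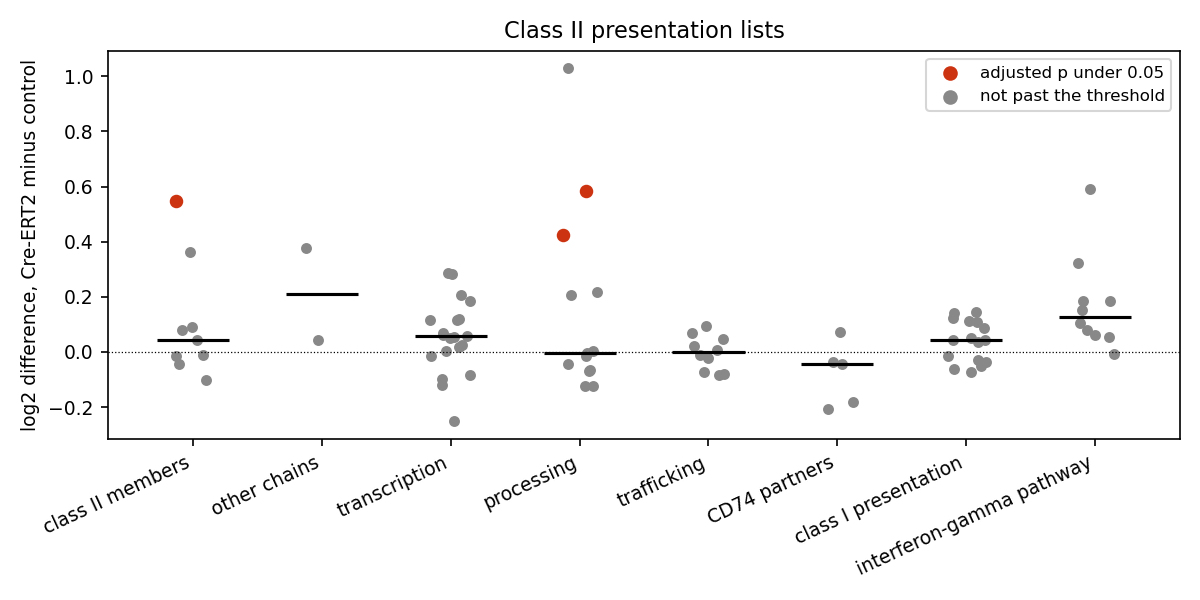
Log2 difference, Cre-ERT2 minus control (vertical axis), of each measured gene of the class II members and of 7 related lists, with a black line at each list's median and genes past an adjusted p of 0.05 in red. Cd74 among the members and Ctsd and Cd82 among the processing genes are the red points, and the medians lie between -0.04 and 0.21.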

How the data were processed

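Biotin-labelled total RNA of 6 samples was measured on Affymetrix arrays (labels' protocols). The authors deposited log2 expression values for 35556 probes. The submitters' processing notes list RMA and Partek 6.5, with no role for either. No source used here gives the background correction or genome build. Values were used as deposited. By the platform annotation, 21789 probes name 1 gene, 1621 name several and 12146 are unnamed here. The brightest single-gene probe stood for a gene (19938 genes).

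The group difference was tested by limma 3.58.1 (lmFit, eBayes; R 4.3.3), p-values were adjusted over all genes by Benjamini-Hochberg, and the threshold was 0.05. The number of arrays limits the precision (median SE 0.0656). On simulated data of 19938 genes, a planted log2 change of 0.5 was recovered in 72.4% of genes and one of 0.25 in 14.5%, with 3.61% false calls. The simulated noise was independent between genes and arrays. These rates therefore do not cover shifts shared by many genes of an array, such as those of control 1. All members were named, and from each other list the genes past the threshold and those with the lowest p or, for markers, the brightest. Genes outside that rule (Igll1, Cd79a, Itgax, Flt3, Cpa3, Fcer1a, the dim markers and the genes of the class II interval) were picked with their values in view. The members and lists were chosen with earlier results of these data known. The alternatives changed filters, probes, scaling, variance model, weights, block, covariate, threshold and arrays.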

Additional observations from a re-analysis of the deposited data

How the results depend on the processing

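The precision is limited by 3 arrays a group. Cd74 was higher under all 17 alternatives, passing in 9. Its log2 difference of 0.55 did not pass with every probe tested (adjusted p = 0.0524) or without variance moderation (0.55, adjusted p = 0.224), nor did 0.22 with the mast covariate. Leaving out arrays gave 0.47 to 0.67. H2-DMa passed with array weights (0.45) and without both arrays numbered 1 (0.51, added after seeing earlier results), and ranged from 0.26 to 0.51 with 1 array left out. Signs turned for members that did not pass. With array weights H2-Ab1 was at 0.054, H2-Eb1 at 0.026 and Ciita at 0.025, and without both arrays numbered 1 they were at 0.020, 0.031 and 0.017. With 1 array left out they ranged from -0.24 to 0.070, from -0.050 to 0.043 and from -0.035 to 0.0050. H2-Ob was at 0.11 with the mast covariate. The causes were not tested.

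Spry2 (-1.06) and Spry1 (-0.84) did not pass without variance moderation, nor did Spry1 (-0.76) with the mast covariate. Members called higher numbered 0 with every probe tested, without variance moderation (1 at an unadjusted limma p under 0.05) and with the mast covariate (0 higher and 1 lower at an unadjusted p), 2 with array weights and without both arrays numbered 1, and 0 to 2 with 1 array left out. Genes called higher and lower numbered 364 and 791 with dim genes left out (those below the 40th percentile), 314 and 692 with arrays centred on medians, 369 and 334 after repeated quantile normalization, 366 and 821 with an intensity trend, 763 and 1082 with array weights, 58 and 35 with the mast covariate, 401 and 833 at a threshold of 0.1, and 0 and 0 without variance moderation (839 and 2355 at an unadjusted p under 0.05). They numbered 123 and 43 without both arrays numbered 1, and 31 to 188 and 18 to 111 with 1 array left out. With the replicate number as a block they were 296 and 285, Cd74 stayed at 0.55 (adjusted p = 0.00235), 1 member was called, and H2-Eb2, which is no member, passed (adjusted p = 0.0153). Deviations from the group means of same-numbered arrays correlated at 0.268, 0.336 and 0.0282. Control 1 with Cre-ERT2 2 gave -0.255, and control 2 with Cre-ERT2 1 gave -0.328. Control 3 gave 0.0304 with Cre-ERT2 1, nearly the same as with its own number. These values do not settle whether the numbers pair the arrays. No label states a pairing, so the main fit used none.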
